A study of Mus musculus with 6 samples.

Results

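The domain described here is the stretch of mouse chromosome 6 that holds Dppa3 and Nanog, from 122565001 to 122672000 in mm9, 107 kb long. Its limits were set by position, though with earlier results of these data known. Within it, Dppa3 was taken as 122576001 to 122581000 and Nanog as 122657001 to 122665000. These limits are rounded and were not checked against an mm9 annotation. In RefSeq of the later build GRCm38.p6, Dppa3 is 3848 and Nanog 7145 bases long, so the 5 kb and 8 kb intervals hold more than the genes. The domain held 1341 of the 20807956 cytosines listed for 5-hydroxymethylcytosine (5hmC) and 576 of the 6248342 listed for 5-formylcytosine (5fC). Of these, 102 and 42 lay in the Dppa3 interval and 82 and 38 in the Nanog interval.

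The data come from Pvu-Seal-seq of genomic DNA from E14 cells, an established line of mouse embryonic stem cells, grown in serum and LIF on gelatin. In this assay the enzyme PvuRts1I cuts at a short distance from a modified cytosine and the tagged fragments are captured, so that each cut end points to a cytosine. The labels describe 2 technical 5hmC libraries and 2 technical 5fC libraries of a culture at passage 14, and 2 technical 5hmC libraries of another culture at passage 12, with no treatment or knockout. Each deposited table holds 1 read number per listed cytosine, pooled over libraries, with a lowest value of 2 reads. Without values per library, neither a replicate error nor a test between regions or marks could be had. The 95% intervals given below cover counting error only, and they take neighbouring cytosines as independent, which they are not; reads carried no molecular identifiers. Absence from a list does not show absence of the mark. A single 5hmC table is named for the passage 14 and passage 12 cultures alike. Its name carries a short form of the label of the passage 14 culture. Which libraries it pools was not stated in the sources used here.

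Nanog encodes a homeodomain transcription factor that stabilises the naive pluripotent state. Dppa3, also called Stella, encodes a small protein that protects DNA methylation in the early embryo and is expressed in naive stem cells and germ cells. Among RefSeq protein-coding genes Dppa3 lies between Gdf3 and Nanog, and Nanog is followed by Slc2a3. Distal enhancers of Nanog are known from the stretch between Dppa3 and Nanog. TET enzymes oxidise 5-methylcytosine to 5hmC and then to 5fC, and the glycosylase TDG removes 5fC. Enhancers and gene bodies are known for both marks in embryonic stem cells, whereas active promoters are usually low in 5-methylcytosine.

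The RefSeq promoter of Nanog is printed to show which CG dinucleotides the start of the gene offers to be listed. It is given 5′ to 3′ on the plus strand, chr6:122707239-122707538 of GRCm38.p6, from 250 bases before to 50 after the annotated start, with each CG in capitals.
Nanog promoter: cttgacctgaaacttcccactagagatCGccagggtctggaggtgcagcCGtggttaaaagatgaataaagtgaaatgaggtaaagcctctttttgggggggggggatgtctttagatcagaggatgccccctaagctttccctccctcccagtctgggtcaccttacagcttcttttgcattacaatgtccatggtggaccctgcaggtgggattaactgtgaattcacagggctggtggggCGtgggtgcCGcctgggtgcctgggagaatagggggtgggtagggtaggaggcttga
These 300 bases hold 4 CG dinucleotides, or 8 cytosines over both strands, at a GC content of 54.3%. A second RefSeq start of Nanog, a little downstream, also has 4. Of the 32851 promoter entries of the same length in RefSeq, 38.0% hold 4 or fewer, and the median is 7. These coordinates are of another build than the tables, so the promoter was not placed among the listed cytosines.

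Over the Nanog interval both marks were sparse in the upstream 4 kb and denser in the downstream 4 kb. From 122657001 to 122661000 there were 24 5hmC sites with 260 reads and 4 5fC sites with 48 reads. The remaining 4 kb, from 122661001 to 122665000, held 58 5hmC sites with 1219 reads and 34 5fC sites with 696 reads. The 5fC/5hmC read ratio, relative to the genome-wide value of 0.387, was 0.477 in the former stretch and 1.47 in the latter. Thus a larger part of the 5fC than of the 5hmC reads lay in the downstream stretch.

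The lowest values lay between 122658001 and 122660000. This bin held 6 5hmC sites with 2 to 4 reads each, 21 reads in all. It had 0 listed 5fC sites, as did 322598 of the 1118940 autosomal 2 kb bins. Of the 185316 autosomal 2 kb bins with 5 to 8 5hmC sites, 0.765% had fewer reads per site than its 3.50. This comparison was chosen after the values were seen, for the bin with the lowest reads per site of the domain. Another domain bin with 5 to 8 sites, from 122588001, had 99.3% of these bins below it. Just upstream of the low bin inside Nanog, 2 CGs and a CA lay close together. The CG at 122657786 had 8 plus and 15 minus 5hmC reads and 20 5fC reads on the minus strand. The CG at 122657896 had 31 plus and 49 minus 5hmC reads and 9 5fC reads on the minus strand. No cytosine was listed in the next 717 bases, from 122657898 to 122658614, nor in the 484 bases from 122657176 to 122657659. The first 3 kb of the interval thus held 1 small group of cytosines with more than 4 reads.

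The CG dinucleotides of Nanog with the most 5hmC reads all lay in the downstream 4 kb. The CG with the cytosine at 122661702 had 67 plus-strand and 49 minus-strand 5hmC reads, but 14 5fC reads on the minus strand alone. At 122662965 the plus strand had 91 and the minus strand 19 5hmC reads, against 12 and 10 5fC reads. At 122663373 the minus strand alone was listed, with 103 5hmC and 48 5fC reads. These CGs, picked for their 5hmC reads, carried fewer 5fC than 5hmC reads, and the genome-wide read ratio was 0.387. Of the 30 cytosines of the interval listed for both marks, 8 had more 5fC reads (26.7%, Wilson interval 14.2 to 44.4%).

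The end of the interval differed in this respect. The 3 CGs of Nanog with the most 5fC reads each had more 5fC than 5hmC reads. The plus cytosine at 122663731 had 92 5fC and 69 5hmC reads. At 122664913 the minus cytosine had 70 5fC and 23 5hmC reads. The CG at 122664937 had 32 and 54 5fC reads on its strands, against 9 and 16 5hmC reads. In the 1000 bases around the downstream limit of the interval, chosen after the values were seen, 579 5fC and 546 5hmC reads were listed, 2.74 times the genome-wide ratio. There 12 of 16 cytosines with both marks had more 5fC reads, a description of a stretch picked for that balance. Over the whole domain this held for 39.2% of such cytosines (34.7 to 43.9%) and in the flanks for 37.5% (35.7 to 39.4%).

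In Dppa3 the sites lay mostly in the upstream part of the interval, with 63 5hmC sites in the upstream 2.5 kb and 39 in the downstream 2.5 kb. Reads were slightly higher downstream, at 443 and 530 for 5hmC and 211 and 244 for 5fC. A single downstream CG, at 122579023, had 104 5hmC and 39 5fC reads, more than the difference between the parts for either mark. The interval held 20.4 5hmC sites per kb, against 10.3 per kb over Nanog and 12.5 per kb in the whole domain. The density of 5hmC sites over Nanog was 0.502 times that over Dppa3 (interval 0.371 to 0.679), and that of 5fC sites 0.565 times (0.355 to 0.899). By reads the intervals were close, at 195 5hmC reads per kb over Dppa3 and 185 over Nanog, and 91.0 and 93.0 5fC reads per kb. Listed sites of Dppa3 had fewer reads on average, with a mean of 9.54 5hmC reads against 18.04 over Nanog, and 10.8 against 19.6 5fC reads.

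Within Dppa3 the 5hmC sites numbered 30, 25 and 30 in the 3 successive kilobases from the start, and 7 and 10 in the remaining 2. Mean reads per site tended the other way, at 6.60, 6.76, 10.5, 22 and 13.6, with medians of 5, 6, 8, 8 and 9.5. The mean of 22 rests on 7 sites with 154 reads, of which 1 CG, at 122579023, had 104. The CG of Dppa3 with the most reads of either mark lay at 122579023, about 3 kb into the interval, with 62 plus and 42 minus 5hmC reads and 34 plus and 5 minus 5fC reads. Next was the CG at 122578958, with 17 and 38 5hmC reads and 36 5fC reads on the minus strand. Among the leading 5hmC CGs, that at 122576833 had 4 and 35 5hmC reads and was not listed for 5fC. Conversely, the CG at 122578917 had 9 and 19 5fC reads and was not listed for 5hmC.

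**Figure D1:**
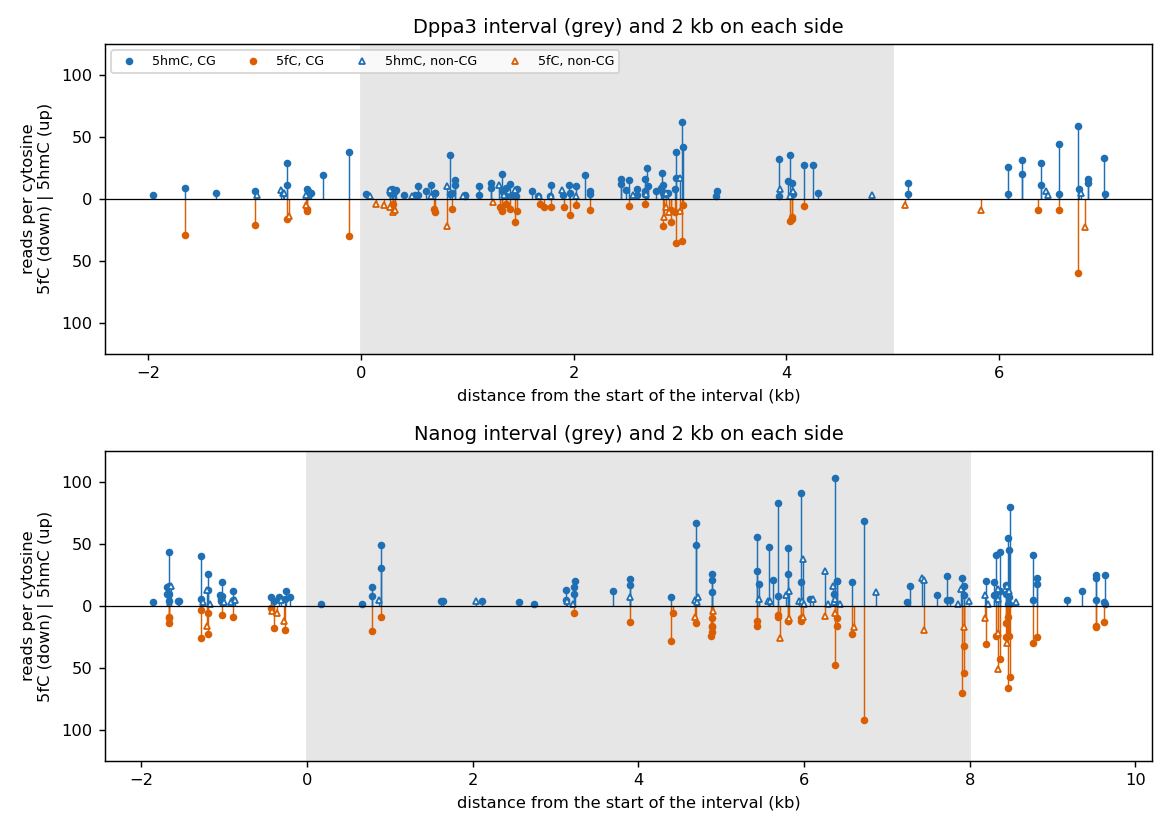
Reads at each listed cytosine over the Dppa3 and Nanog intervals (grey) and 2 kb on each side, against distance in kb from the start of the interval. 5hmC reads are drawn upward in blue and 5fC reads downward in orange, with filled circles for CG and open triangles for other dinucleotides. Dppa3 has many low values at its start, and Nanog has nearly none between 1 and 3 kb and its highest values from 4 kb onward.

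The Dppa3 interval shared fewer cytosines between the marks than the rest of the domain. Of its 42 5fC sites, 24 were also listed for 5hmC (57.1%, interval 42.2 to 70.9%), against 30 of 38 in Nanog (78.9%, 63.7 to 88.9%), 75.3% of the 433 between the genes and 77.4% in the flanks (76.0 to 78.8%). Its 5hmC sites also had fewer reads, a median of 6 against 10.5 in Nanog and 10 between the genes, and the part of depth in the lower overlap was not tested. CG dyads, the paired cytosines of both strands, were listed on both strands for 5hmC in 18 of 62 cases in Dppa3 (29.0%, 19.2 to 41.3%) and 14 of 38 in Nanog (36.8%, 23.4 to 52.7%). For 5fC the numbers were 3 of 28 in Dppa3 (10.7%, 3.71 to 27.2%) and 8 of 20 in Nanog (40%, 21.9 to 61.3%). With so few dyads the intervals of both genes overlap for each mark.

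**Figure D2:**
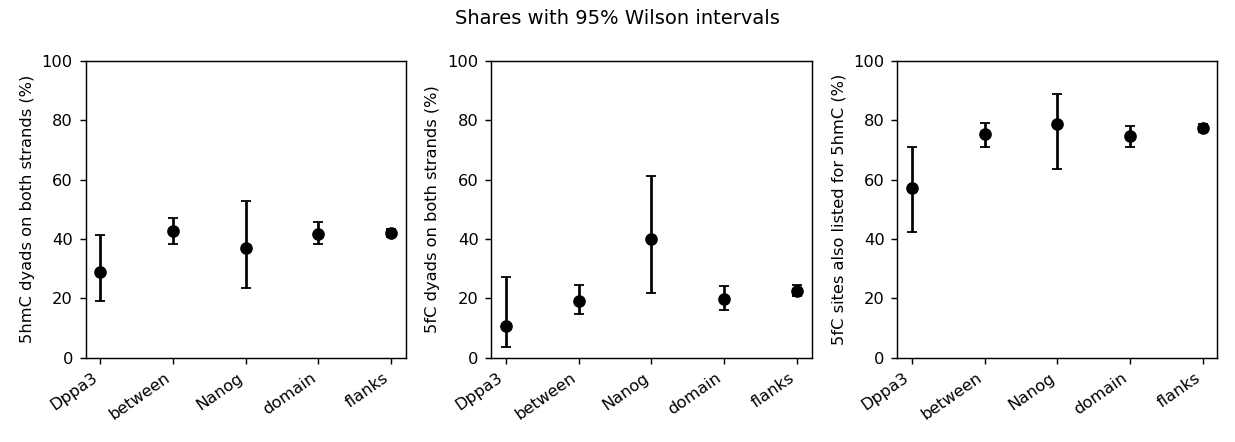
Share of 5hmC and of 5fC CG dyads listed on both strands, and share of 5fC sites also listed for 5hmC, in percent, with 95% Wilson intervals as bars, for Dppa3, the stretch between the genes, Nanog, the whole domain and the 500 kb flanks. The Dppa3 interval for shared sites lies below that of the flanks, whereas the small numbers of dyads give wide, overlapping intervals for both genes.

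The stretch between the genes makes up 76 kb of the domain. The bases from 122581001 to 122657000 held 993 5hmC and 433 5fC sites, with 15162 and 7905 reads. That is 13.1 5hmC and 5.70 5fC sites per kb, near the values of the whole domain. The densities were 1.40 times (interval 1.31 to 1.497) and 1.73 times (1.56 to 1.91) those of the flanks. With 250 kb flanks they were 0.953 times (0.891 to 1.019) and 1.105 times (0.996 to 1.22). The 11 kb of the domain before Dppa3 had 10.2 5hmC and 3.82 5fC sites per kb, and the 7 kb after Nanog 7.43 and 3 per kb.

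In 2 kb bins, 5hmC sites ranged from 4 to 73 with a median of 23 over the 53 whole bins, against a median of 13 in the flanks and over the autosomes. For 5fC the range was 0 to 42 with a median of 8, against 3 in the flanks and 2 over the autosomes. A bin was called rich when it reached the 90th percentile of all autosomal bins, 42 5hmC or 16 5fC sites. By 5hmC sites 6 of the 53 bins were rich (11.3%), near the background of 10.5% of 1118940 bins. By 5fC sites 14 were rich (26.4%), against a background of 10.5% and 15.4% of the flank bins. The nearer surroundings were richer, and of the 249 flank bins within 250 kb of the domain 24.5% were rich in 5fC sites and 20.9% in 5hmC sites. By reads 11 bins were rich in 5hmC (20.8%) and 13 in 5fC (24.5%), with a background of 10% for each and 21.7% and 24.5% of the bins within 250 kb. Against the autosomes the domain thus had more rich bins in the 5fC list by both measures and in the 5hmC list by reads. Against the bins within 250 kb its shares were close for reads and for 5fC sites, and lower for 5hmC sites.

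The 14 bins rich in 5fC sites fell into 8 separate runs. They held 63.5% of the 5fC reads and 50.6% of the 5hmC reads of the bins, a description only, since the bins were chosen for their 5fC sites. The longest run, 6 kb from 122634001 to 122640000, held 79 5fC sites with 1450 reads and 153 5hmC sites with 2404 reads. It contained the bin with the most sites of both marks, from 122636001 to 122638000, with 73 5hmC and 42 5fC sites. Fewer 5hmC sites were found in 98.6% of autosomal bins and fewer 5fC sites in 99.2%. The next highest by both marks were the adjoining bins from 122620001 to 122624000, with 67 and 61 5hmC sites and 34 and 35 5fC sites. Other runs lay at 122594001 to 122596000, 122600001 to 122604000, 122614001 to 122618000 and 122644001 to 122646000, and over the start of Dppa3 and the end of Nanog. That runs are separated by bins below the threshold follows from the cut itself. 5fC was listed in all but 2 of the 53 bins. It was listed in all but 154 of the 499 flank bins and all but 322598 of the 1118940 autosomal bins. The domain bins not called rich held 36.5% of the 5fC reads.

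**Figure D3:**
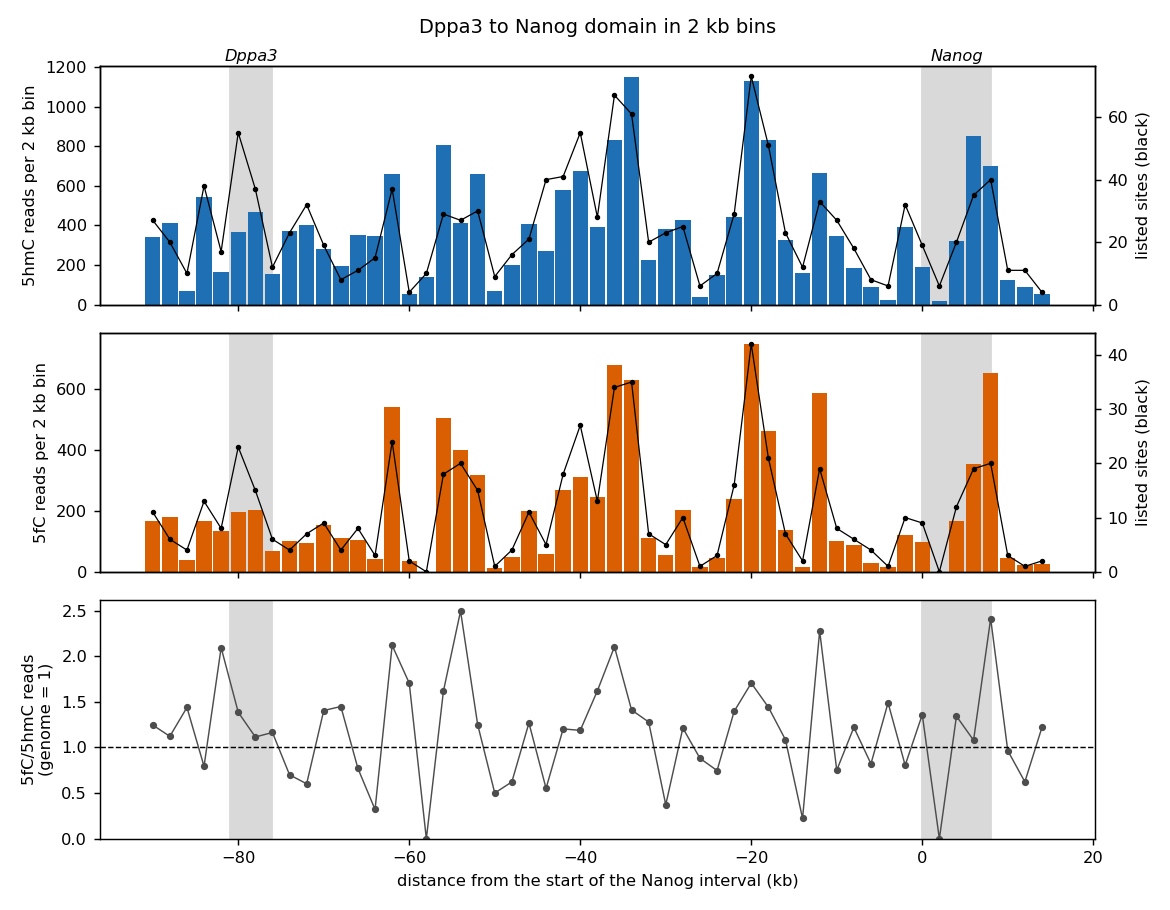
Reads (bars, left axis) and listed sites (black line, right axis) of 5hmC and 5fC per 2 kb bin, and the 5fC/5hmC read ratio relative to that of the genome (bottom), against distance in kb from the start of the Nanog interval, with the gene intervals in grey. The most 5hmC reads are in the bins starting at -35 and -21 kb, the most 5fC reads in those at -21 and -37 kb, and 5fC is not listed in the bin from 1 to 3 kb inside the Nanog interval.

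Among the 22 bins whose reads reached the domain's median for each mark, the ratio was highest from 122602001 to 122604000, at 2.49 times the genome-wide value, with 398 5fC and 412 5hmC reads. The bin at the end of Nanog, from 122664001 to 122666000, followed at 2.41 times with 653 and 699 reads, and that from 122644001 to 122646000 at 2.28 times with 588 and 667. The lowest of these ratios were 0.794 times from 122572001 to 122574000, upstream of Dppa3, 0.806 times from 122654001 to 122656000, just upstream of Nanog, and 1.08 times from 122662001 to 122664000. The bins on either side of 122664000, both within or across the end of Nanog, thus stood at opposite ends of the order of these 22. Bins with few 5fC reads could not enter this order. An example is the bin from 122626001, with 381 5hmC and 55 5fC reads, at 0.373 times. Over the 53 bins the reads of the marks had a Spearman correlation of 0.92, and 0.93 over the 499 flank bins, as a description of bins that share libraries and sequence.

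The CGs with the most reads in the domain all lay between the genes. For 5hmC they were at 122600070, with 111 plus and 46 minus reads, and at 122592294, 122601907, 122645706 and 122645222, with 134, 130, 128 and 122 reads over both strands. For 5fC the CG at 122645222 led with 109 plus and 37 minus reads, against 55 and 67 5hmC reads. The CG at 122594165 had 63 and 57 5fC reads, against 46 5hmC reads on the minus strand alone. At 122620537 the minus strand had 108 5fC and 31 5hmC reads, and at 122621782 the minus strand alone was listed for 5fC, with 111 reads beside 85 of 5hmC. Next was the CG at 122645706, with 69 plus and 28 minus 5fC reads, against 73 and 55 5hmC reads. The CGs at 122645222 and 122645706 were leading for both marks, so the lists overlapped in part. At the 431 cytosines listed for both marks the read numbers had a Spearman correlation of 0.40, a description across cytosines.

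A few bins held many 5hmC sites with unusually few reads each. Over the start of Dppa3, from 122576001 to 122578000, 55 5hmC sites carried 367 reads, or 6.67 per site, and 21 of them had 2 to 4 reads. From 122612001 to 122614000, between the genes, 40 sites carried 271 reads, or 6.78 per site, and 21 had 2 to 4 reads. The median over the 132526 autosomal bins with at least 40 5hmC sites was 14.0 reads per site, and 0.0830% and 0.0936% of these bins lay below the bins named. Of the 9 domain bins with at least 40 5hmC sites, these 2 fell below the 1st percentile, against a background of 1% and 0 of 66 such bins in the flanks, where the lowest had 10.2 reads per site. This comparison was chosen after the values were seen, and with the grid moved by 1 kb 1 of 11 bins, at the start of Dppa3, fell below.

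The bins differed in 5fC. The Dppa3 bin held 23 5fC sites with 197 reads and so was rich in 5fC sites, whereas that from 122612001 held 5 with 58 reads. In the latter, the 1000 bases from 122612501 to 122613500 had 15 5hmC sites with 61 reads and 0 listed 5fC sites, while the 500 bases just upstream of the bin, from 122611501, had 7 5hmC sites with 188 reads. Low reads per site were also found from 122652001 to 122654000, upstream of Nanog, where 6 5hmC sites had 26 reads and 1 5fC site 15. In all, 5 of the 53 bins had under 7 reads per 5hmC site, among them that inside Nanog described above. This cut was set after the values were seen, and the share of flank or autosomal bins under it was not counted. Flank bins also fell below it, down to a mean of 2. The median over bins was 13.8 reads per 5hmC site in the domain and 11.5 in the flanks. The count of bins under the cut therefore does not set the domain apart. The bin from 122630001, at 6.83 reads per site, had 33.5% of the autosomal bins with 5 to 8 5hmC sites below it.

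**Figure D4:**
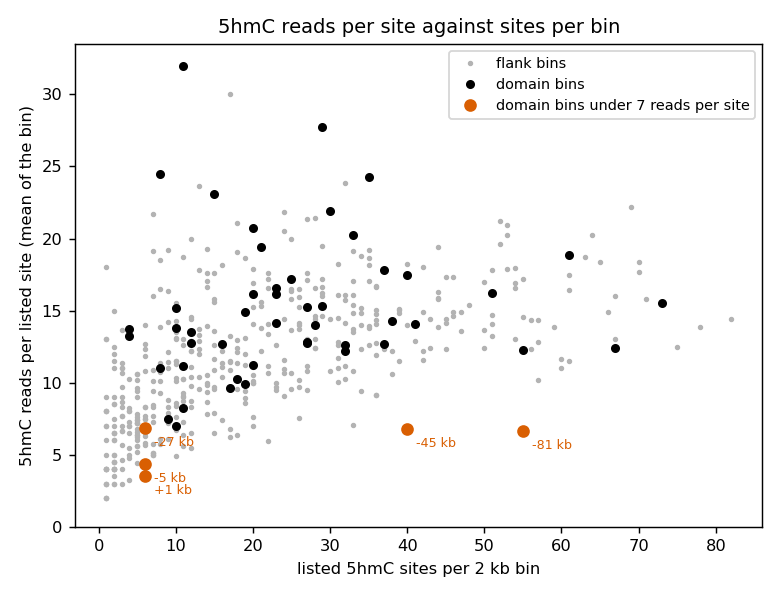
Mean 5hmC reads per listed site against listed 5hmC sites for each 2 kb bin of the domain (black) and of the 500 kb flanks (grey). The 5 domain bins under 7 reads per site, a cut set after the values were seen, are in orange. Flank bins under this cut are not marked. Their start is given in kb from the start of the Nanog interval. Those at -81 kb (Dppa3) and -45 kb lie apart from the other bins with 40 or more sites.

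CG made up 72.0% of its 5hmC sites (interval 69.6 to 74.4%) and 72.6% of its 5fC sites (68.8 to 76.1%), against 74.2% and 75.3% in the flanks. The 5hmC share was 72.7% (71.5 to 73.9%) in the flank of lower coordinates and 76.3% (74.9 to 77.6%) in the other, whose interval lies above that of the domain. Nanog had the lowest CG share of 5hmC sites, 63.4% (52.6 to 73.0%), and Dppa3 78.4% (69.5 to 85.3%). The CC at 122662988 in Nanog, on the minus strand, had the most 5hmC reads of any non-CG cytosine in the domain, 38, with 9 5fC reads. The CA at 122639605 had the most 5fC reads, 61, beside 23 of 5hmC. Both cytosines have a listed CG 20 to 23 bases downstream on their strand, at 122662965 and 122639582. Of the 375 5hmC sites outside CG, 219 had a listed CG 20 to 23 bases downstream (58.4%, 53.4 to 63.3%), against 64.0% in the flanks. For 5fC the count was 97 of 158 (61.4%, 53.6 to 68.6%), against 60.7% in the flanks. At the same distance upstream, the counts were 18 of 375 for 5hmC and 8 of 158 for 5fC. In Nanog 13 of the 30 5hmC sites outside CG had such a CG downstream.

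Of the 713 CG dyads of the domain with either mark, 317 carried both, 364 5hmC alone and 32 5fC alone. Both marks were on both strands in 53 dyads, with a median of 51 5hmC and 39 5fC reads. In the 131 dyads listed on 1 strand for each mark, both were on the same strand in 109 (83.2%, 75.9 to 88.6%), against 80.0% in the flanks. The share of 5hmC sites also listed for 5fC rose with 5hmC reads, from 10.6% at 2 to 4 reads to 79.2% at 40 or more. At 20 to 39 reads it was 58.9% in the domain (52.3 to 65.2%) and 48.9% in the flanks (46.4 to 51.4%), and in the other read classes the intervals of domain and flanks overlapped.

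Against the 500 kb on both sides, the domain was denser in both marks and more so in 5fC. It held 12.5 5hmC and 5.38 5fC sites per kb, 1.35 times (interval 1.27 to 1.42) and 1.63 times (1.49 to 1.78) the densities of the flanks. For 5hmC the direction depended on how far the flanks reached. With 250 kb on each side the 5hmC density was 0.914 times (0.862 to 0.970) and the 5fC density 1.04 times (0.952 to 1.14) that of the flanks. The flanks were uneven, with 10.9 5hmC sites per kb upstream and 7.75 downstream, and the upstream flank included 46035 bases without a listed cytosine. Such stretches of at least 1000 bases numbered 1 in the domain, or 9.35 per Mb, against 92 per Mb in the upstream and 192 per Mb in the downstream flank. Since no mm9 sequence was used here, densities were not corrected for the number of CGs.

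The balance of the marks held in both settings. The ratio of 5fC to 5hmC reads was 1.34 times the genome-wide value in the domain and 1.12 times in the flanks, so that the domain lay 1.19 times above the flanks, and 1.14 times with 250 kb flanks. Among 9 adjoining windows of 107 kb, the domain had the highest ratio, followed by 1.31 times in the window from 122351001 to 122458000. By sites it was not the highest, with 4 of the other 8 windows above it for 5hmC (1382 to 1744 sites) and 3 for 5fC (645 to 724 sites). Over the autosomes, 73.4% of 22338 windows of this length had fewer 5hmC sites and 84.5% fewer 5fC sites. Of the 10789 whose reads reached the autosomal median for each mark, 96.2% had a lower ratio.

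**Figure D5:**
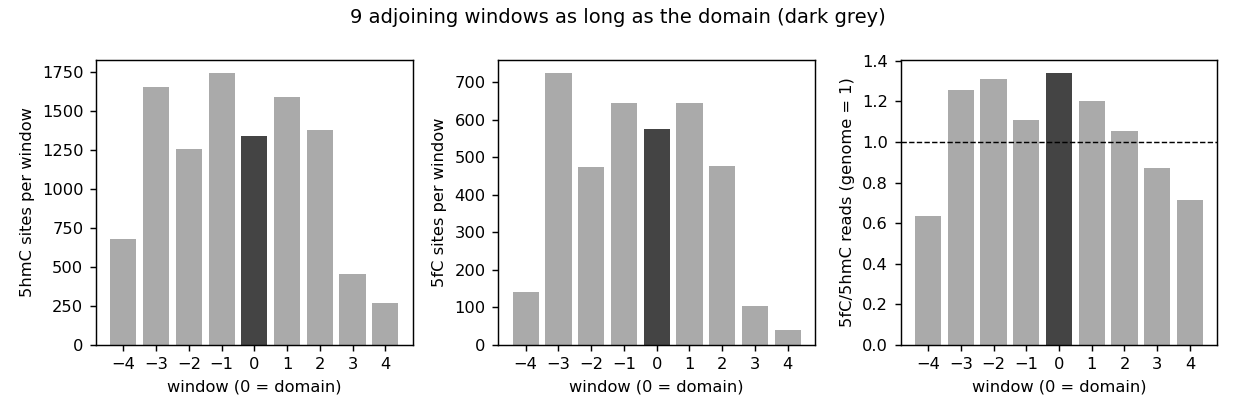
Listed 5hmC sites, listed 5fC sites and the 5fC/5hmC read ratio relative to that of the genome in 9 adjoining windows of 107 kb, with the domain (window 0) in dark grey and windows numbered by position. The domain has the highest ratio, while 4 windows hold more 5hmC sites and 3 more 5fC sites.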

How the data were processed

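Per the labels' protocols, DNA was cut with PvuRts1I, tagged with azide-glucose, captured on streptavidin and sequenced. That text describes the 5hmC libraries. How 5fC was told from 5hmC, and how cut ends were assigned to cytosines and pooled, was not given in the sources used here. Reads were handled with bcl2fastq, CASAVA, Bowtie and cutadapt on build mm9, per the submitters' processing notes. The authors deposited 2 tables of read counts per listed cytosine, not normalized and pooled over libraries, with sums of 264008048 reads for 5hmC and 102305049 for 5fC. These sums leave out unlisted cytosines and are not the depth. The 5hmC table was taken as that of the passage 14 culture, after its name.

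Sites were counted by region, in whole 2 kb bins and in the 500 kb on both sides. CG cytosines were paired into dyads. Shares have Wilson intervals, and density ratios have intervals from the exact binomial share of sites. Background bins were those of chromosomes 1 to 19 with at least 1 listed site. Bins named were the 3 with the most sites of each mark and, among bins reaching the domain's median reads of each mark, the 3 highest and lowest ratios. CGs named were the 5 (domain) or 3 (gene) with the most reads of each mark, beside others chosen after their values were seen at the start of Nanog. The members, regions and lists were chosen with earlier results of these data known. The counting steps, tested on simulated data, passed 8 of 8 checks over 5000 dyads. Python 3.11.15, numpy 2.4.6, pandas 2.3.3, scipy 1.17.1 and matplotlib 3.10.9 were used.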

Additional observations from a re-analysis of the deposited data

How the results depend on the processing

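No paired analysis was possible because replicates were pooled before deposit into 1 value per cytosine, and for the same reason no library could be left out. The density of 5hmC sites against the flanks reversed to 0.914 times with 250 kb flanks and moved to 2.14 times with 1 Mb flanks, and that of 5fC moved to 1.04 and 2.90 times. For the stretch between the genes, 250 kb flanks, also tried after the data were seen, gave 0.953 times for 5hmC and 1.105 times for 5fC. Their intervals, 0.891 to 1.019 and 0.996 to 1.22, both include 1. The ratio of 5fC to 5hmC reads against the flanks was 1.14 and 1.27 times with these flanks and 1.16 times with at least 10 reads per site. With at least 5 and at least 10 reads, 37.7% and 27.4% of 5hmC dyads were on both strands, and 70.2% and 63.6% of 5fC sites were also 5hmC sites. By reads 11 bins were rich in 5hmC. With the grid moved by 1 kb, 1 dense bin was low in reads per site, a setting added after the data were seen along with at least 30 sites per bin and CG sites only for this count. The flank settings change the sites compared, and the cause of the other moves was not tested. The other 21 settings stayed within the interval of the value or within 1.5 times a count. Few dyads per gene limit what the shares over Dppa3 and Nanog can show.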
